A study of Caenorhabditis elegans with 12 samples.

Results

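The comparison described here is that of *set-2(tm1630)* mid-embryos with wild-type embryos prepared in parallel, over all genes. Its members are the 3 libraries titled for the deletion allele and the 3 libraries titled N2 without the prefix of the second experiment, 6 of the 12 libraries of the series. The series asked how loss of H3K4 methylation changes the transcriptome at the stage when the axons of the PVQ interneurons grow out. The other 6 libraries hold *set-2(zr2012)*, a SET-domain substitution, and its own wild type. The *tm1630* allele removes the 5′ end of *set-2* with the start codon, and wild type was the N2 strain. Both genotypes were grown at 20°C, hermaphrodites were bleached a second time, and the eggs were kept for 4 h in buffer, when most of them were at comma stage. The library titles name no other allele or agent in either group, and *tm1630* had been backcrossed 6 times. RNA came from whole embryos, made into TruSeq v2 libraries, and each library is a separate preparation of many embryos.

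SET-2 is the catalytic subunit of the worm SET1/COMPASS complex, which places methyl groups on lysine 4 of histone H3 near the starts of transcribed genes. Subunits such as ASH-2, RBBP-5, WDR-5.1 and CFP-1 hold the complex together or target it, SET-16 is the related MLL-type enzyme, and demethylases such as RBR-2 and SPR-5 remove the mark. In *C. elegans*, maternal RNA and rapid divisions dominate the early embryo, most divisions end around mid-embryogenesis, and neurons, muscle, gut and epidermis then differentiate while the embryo elongates.

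The libraries held 25370532 to 53080992 counts in wild type and 14651380 to 34212722 in the mutant. The wild-type libraries stood further apart from each other than the mutant libraries. The median SD of log2 expression came to 0.564 among wild-type and 0.204 among mutant libraries, and wild type was the more variable group for 86.2% of genes. Pearson correlations of log2 levels, computed over genes, were 0.898 to 0.937 between wild-type libraries and 0.983 to 0.994 between mutant libraries, and every pair differed by more than counting noise. Wild-type replicate 1 was high in ribosomal protein and neuropeptide genes, wild-type replicate 3 in replication and cell cycle genes, and mutant replicate 2 in histone genes. *set-2* itself did not check the labels. Its row lay at 0.0458, 0.280 and 0.813 CPM (the usual depth-scaled read count, here with edgeR's TMM factors) in wild type and at 3.09, 0.810 and 2.79 CPM in the mutant, with overlap (adjusted p = 0.0589), and its transcript rows held no reads. Rows were also a limit for other genes, because the table splits some genes between a row of their own and rows of RefSeq transcripts. Of 1974 genes with both kinds, 1662 had a row of their own under 10 reads in every library, among them *cfp-1*, *hlh-1*, *elt-1*, *pgl-1*, *unc-119*, *unc-25* and *daf-19*, so nothing is said of their levels here.

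Of 16332 genes tested, 14.4% (2352) were upregulated and 16% (2609) downregulated in the mutant, 30.4% (4961) in either direction (edgeR's quasi-likelihood test, Benjamini-Hochberg adjusted p under 0.05), with a median log2 fold change of -0.21. These shares are the background against which each gene list is read. All mutant libraries lay above all wild-type libraries for 25.8% of genes and below them for 24.6%. The count of DE genes depended on single libraries. It was 747, 938 and 916 without mutant replicate 1, 2 or 3, 2957 without wild-type replicate 2 and 7857 without wild-type replicate 3, against 4961 with all 6. Genes of both directions were found at every level of expression, with 13.5% to 15.5% upregulated in each class of mean level and 5.73% downregulated among genes under 1 CPM against 15.3% to 20.5% above it.

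**Figure D1:**
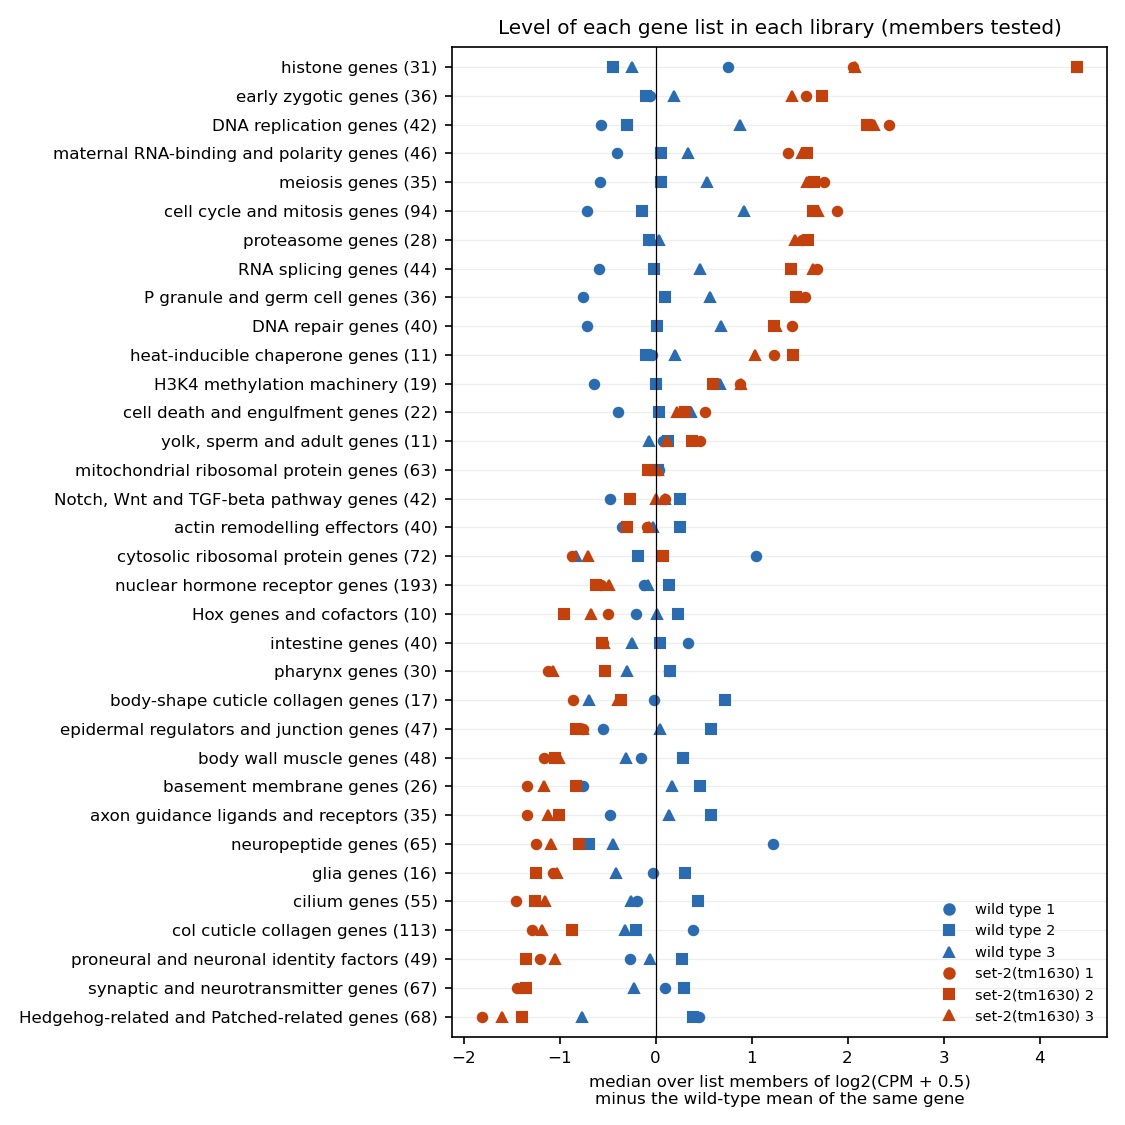
For each of 34 gene lists, the median over its tested members of log2(CPM + 0.5) relative to the wild-type mean, in each of the 6 libraries (wild type blue, *set-2(tm1630)* orange, marker shape by replicate number, members tested in parentheses). Proteasome genes lay between 1.46 and 1.58 in the mutant and between -0.07 and 0.04 in wild type, whereas the mutant replicates of the histone list were spread from 2.06 to 4.39.

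Transcripts of embryos younger than mid-embryogenesis were higher in the mutant. Of 36 early zygotic genes tested, which are first transcribed from the embryonic genome during the early divisions, 24 were upregulated and 2 downregulated, with a median log2 fold change of 2.34. Their summed level was 344 to 499 CPM in wild type and 787 to 887 CPM in the mutant, and 7 of the 57 in the table were at 0 in all 6 libraries. *pes-10*, a classical early embryonic transcript, had 12, 0 and 12 reads in wild type and 483, 268 and 447 in the mutant (log2 fold change 5.93, standard error 0.99, adjusted p = 0.00771). *end-1*, which encodes a GATA factor that specifies endoderm, had 3, 2 and 4 reads in wild type and 121, 30 and 117 in the mutant. The reads of the mutant libraries exceeded those of every wild-type library for both genes, although at only 2.02 to 3.37 CPM for *end-1*. *tbx-37* and *tbx-38*, T-box genes of the anterior blastomeres, rose by 3.51 and 4.89 on the log2 scale. *end-3*, the partner of *end-1* in the same lineage, was at 1.1, 0.688 and 7.88 CPM in wild type and at 3.43 to 3.78 CPM in the mutant, so its groups overlapped. The early genes that fell were *vab-7* (-1.93), a posterior homeobox gene, and *sdz-38* (-1.75). Members with few wild-type reads, such as *end-1*, passed the count filter only through the mutant libraries where they were high. With 10 counts required of every library, 12 of 23 early zygotic genes were upregulated, with a median of 1.55. Without 1 mutant library, 31 passed the count filter and 9 or 10 of them were upregulated.

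RNA that mothers load into the egg was higher as well. Of 46 maternal RNA-binding and polarity genes, 26 were upregulated (median log2 fold change 1.67) and 20 did not pass the test. In 33 of the 46 all mutant libraries lay above all wild-type ones. *oma-2*, a zinc-finger regulator of oocyte maturation, was at 2.25, 1.94 and 3.96 CPM in wild type and at 37.4, 32.5 and 33.3 CPM in the mutant (log2 fold change 3.66, standard error 0.39, adjusted p = 0.00300). *mex-5*, a polarity factor that keeps germline proteins out of the somatic side of the egg, was at 5.27, 2.68 and 20.0 CPM in wild type and at 90.9, 74.3 and 79.5 CPM in the mutant. *pie-1*, which represses transcription in germline blastomeres, was measured on a transcript row only and went from 0.918 to 1.38 CPM to between 19.8 and 23.5 CPM. The Pumilio gene *puf-3* rose from between 3.19 and 4.14 CPM to between 24.8 and 34.8 CPM. Wild-type replicate 3 was the highest wild-type library for *mex-5* and *oma-2* but stayed below the mutant. Other members, such as *skn-1* (-1.45), *rme-2* (-0.68) and *cgh-1* (-0.56), had negative values that did not pass the test. With 1 mutant library left out, 17 to 19 members were called.

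Genes of adult mothers and sperm were low in both groups. The 60 yolk, sperm and adult genes summed to 14.02 to 18.05 CPM in wild type and 17.1 to 18.6 CPM in the mutant, and 12 of them were at 0 in all libraries. *vit-6*, a yolk protein gene, was at 0.388 to 0.739 CPM in wild type and at 0.173 to 0.675 CPM in the mutant. The summed level of the adult list overlapped between the groups. Of its 11 members tested, *msp-38* was downregulated (-2.82), a call that was lost whichever library was left out. Whether embryos of different age contributed to the changes of the other lists was not tested.

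Of 19 genes of the H3K4 methylation machinery, 6 were upregulated, 1 was downregulated and 12 did not pass the test, with a median log2 fold change of 0.68. *ash-2* was at 49.9, 77.2 and 124 CPM in wild type and at 231.4, 148 and 202 CPM in the mutant (log2 fold change 1.21, standard error 0.40, adjusted p = 0.0496). The other subunit genes that rose were *rbbp-5* (0.91), *wdr-5.1* (1.04), *swd-2.2* (1.096) and *wdr-5.3* (2.23), together with the demethylase-related *lsd-1* (1.45), while *wdr-5.2* fell (-1.01). The methyltransferase *set-16* was at 83.3, 406 and 464 CPM in wild type and at 187, 161 and 174 CPM in the mutant, with overlap (-0.87, adjusted p = 0.265). The demethylase *rbr-2* had a log2 fold change of 0.02 and *spr-5* one of 0.84, neither past the threshold. None of the 6 increases passed the test when any 1 mutant library or wild-type replicate 2 was left out, where 0 were called.

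Guidance cues and receptors for growing axons were lower. Of 35 ligands and receptors tested, 19 were downregulated and 1, the ephrin *efn-3*, was upregulated (2.07), with a median log2 fold change of -1.26. *unc-6*, the netrin that attracts or repels axons along the dorsoventral axis, was at 126, 234 and 94.4 CPM in wild type and at 24.1, 40.8 and 32.6 CPM in the mutant (log2 fold change -2.22, standard error 0.42, adjusted p = 0.0103). *slt-1*, the Slit ligand, was at 203, 403 and 187 CPM in wild type and at 47.5, 87.2 and 71.4 CPM in the mutant (-1.94, standard error 0.42, adjusted p = 0.0149). The groups did not overlap for either ligand. The Wnt ligands *lin-44* (-2.87) and *egl-20* (-2.31) fell by more, and so did the ADAMTS-like gene *mig-6* (-2.496).

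The receptors divided. *plx-2* (plexin) and *vab-1* (Eph receptor) fell by 1.94 and 1.61 on the log2 scale, and the netrin receptor *unc-5* fell by 1.41, each with all mutant libraries below wild type. *unc-40*, the other netrin receptor, was at 131, 393 and 263 CPM in wild type and at 201, 207 and 186 CPM in the mutant. Its groups overlapped (log2 fold change -0.41, adjusted p = 0.472), as did those of the Robo receptor *sax-3*, at 113, 528 and 307 CPM in wild type and 134 to 144 CPM in the mutant. Wild-type replicate 1 was the lowest wild-type library for *vab-1*, *plx-2*, *unc-5* and *sax-3*. The heparan sulfate proteoglycan *sdn-1*, at 326 to 551 CPM in wild type and 198 to 232 CPM in the mutant, did not overlap but did not pass the test (-0.98, adjusted p = 0.0548). Without mutant replicate 1, 2 or 3, the number of guidance genes downregulated was 0, 4 and 1, and without wild-type replicate 2 it was 9.

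Actin regulators that act downstream of guidance receptors showed no common direction. Of 40 tested, 8 were downregulated and 2 upregulated, 20% and 5% against 16% and 14.4% over all genes, and the median log2 fold change was -0.22. *wsp-1*, the WASP homologue that activates the Arp2/3 complex, was at 15.7, 22.9 and 8.17 CPM in wild type and at 5.94, 3.04 and 4.52 CPM in the mutant (-1.78, standard error 0.48, adjusted p = 0.0272), without overlap. All 7 Arp2/3 subunit genes *arx-1* to *arx-7* were tested and none was called, with log2 fold changes between -0.33 and 0.42. *unc-34* and *nck-1*, an Ena/VASP protein and an adaptor, were measured on transcript rows and did not pass the test (-0.84 and -0.17). The groups overlapped for *cdc-42* (0.43, adjusted p = 0.299), and *wve-1* had no reads in any library. No decrease passed the test without any 1 mutant library, 2 did without wild-type replicate 2, and 5 did with 10 counts required of every library.

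**Figure D2:**
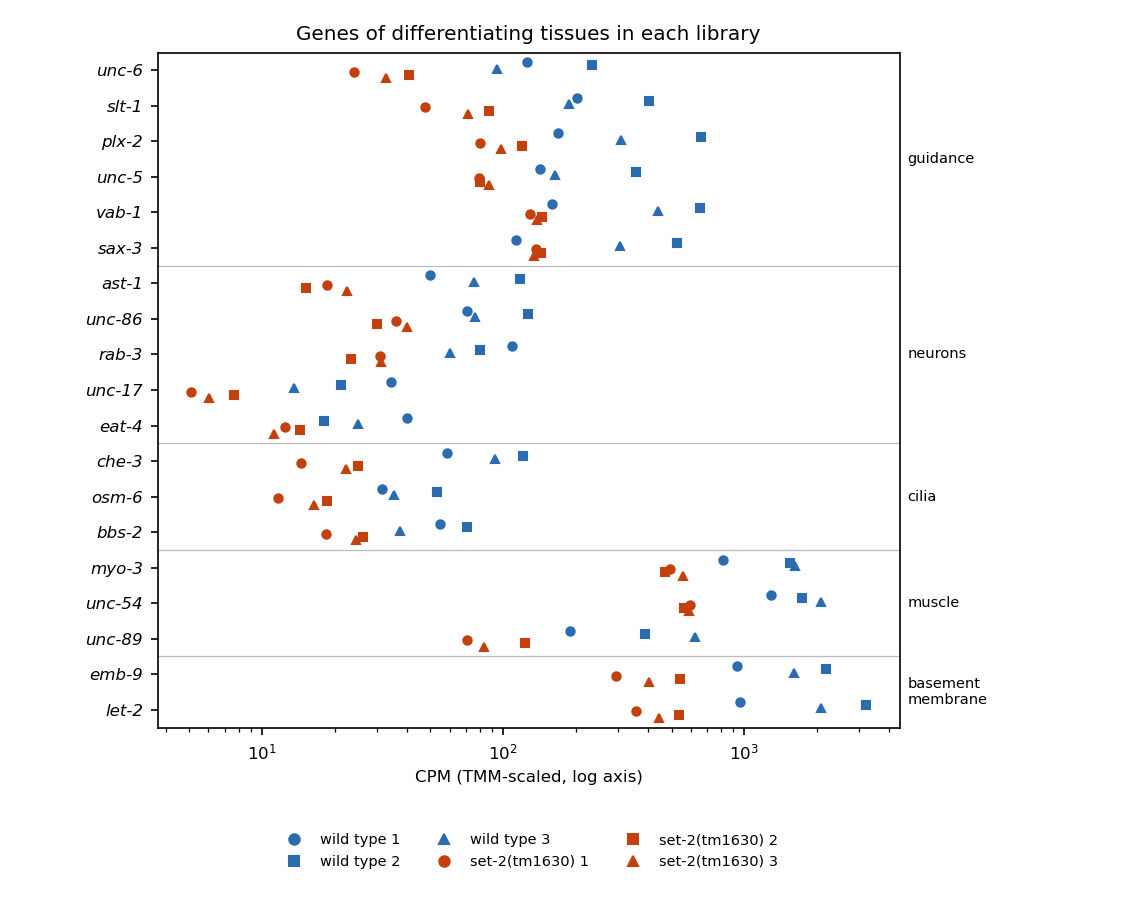
CPM on a log axis of genes of guidance, neurons, cilia, muscle and basement membrane in the 3 wild-type (blue) and 3 *set-2(tm1630)* (orange) libraries, 1 marker per library. Every gene shown was lower in all mutant than in all wild-type libraries, other than *sax-3*, for which wild-type replicate 1 was at 113 CPM.

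Genes of synapses and transmitters were lower in the mutant. Of 67 synaptic and neurotransmitter genes, 49 (73.1%) were downregulated and 18 did not pass the test, with a median log2 fold change of -1.53. The list lay at -1.44, -1.35 and -1.36 in the mutant libraries on the relative log2 scale and at -0.23 to 0.29 in wild type. *rab-3*, the GTPase of synaptic vesicles, was at 109, 80.3 and 60.2 CPM in wild type and at 30.9, 23.4 and 31.2 CPM in the mutant (-1.54, standard error 0.32, adjusted p = 0.0132). *unc-17*, the vesicular acetylcholine transporter, fell by 1.88 on the log2 scale and *eat-4*, the vesicular glutamate transporter, by 1.13. Genes of glutamatergic (*glr-1*, -2.28), GABAergic (*unc-47*, -2.14), dopaminergic (*dat-1*, -1.88) and serotonergic (*tph-1*, -1.71) transmission were all among those that fell. The early zygotic list, summed at 344 to 499 CPM in wild type, stood at 787 to 887 CPM in these mutant libraries, and its part in the lower neuronal levels was not tested. *snb-1*, the synaptobrevin gene, had a log2 fold change of 0.08. Without mutant replicate 1, 2 or 3, 3, 7 and 3 synaptic genes were called, and the median stayed between -1.67 and -1.39 with any library left out.

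Factors that set neuronal identity fell in the same libraries. Of 49 proneural and identity genes, 25 were downregulated and 1, *nhr-67*, was upregulated (1.37). *ast-1*, an ETS factor of dopaminergic neurons and of axon navigation, was at 49.9, 118 and 75.8 CPM in wild type and at 18.7, 15.2 and 22.5 CPM in the mutant (-2.11, standard error 0.38, adjusted p = 0.00920). *unc-86*, a POU homeodomain selector, was at 70.8, 127 and 76.6 CPM and at 35.9, 29.95 and 40.02 CPM (-1.37). Among proneural genes, which act earlier, *cnd-1* fell by 1.96 on the log2 scale and others missed the threshold. *hlh-3* was at 25.29 to 32.3 CPM in wild type and 15.2 to 17.9 CPM in the mutant (adjusted p = 0.0509), and *ngn-1* overlapped, with wild-type replicate 3 at 29.7 CPM. Without 1 mutant library, 1, 2 and 6 members were downregulated.

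Cilium genes, which in the worm are active in sensory neurons, were lower too. Of 55 tested, 41 were downregulated, 14 did not pass the test, and 45 had all mutant libraries below wild type (median -1.38). *che-3*, the dynein heavy chain of retrograde intraflagellar transport, was at 58.6, 122 and 92.3 CPM in wild type and at 14.5, 24.96 and 22.3 CPM in the mutant (-2.14, standard error 0.38, adjusted p = 0.00859). *osm-6*, *osm-5* and *bbs-2*, of the transport particle and the BBSome, fell by 1.36, 1.41 and 1.24 on the log2 scale. The number called was 1, 3 and 4 without mutant replicate 1, 2 or 3 and 21 without wild-type replicate 2. Of 16 glia genes, 8 were downregulated, led by *hlh-32* (-2.54) and *kcc-3* (-2.45), a potassium-chloride cotransporter of amphid sheath glia, and 1 was called without any 1 mutant library and 3 without wild-type replicate 2.

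Neuropeptide genes varied more among the wild-type libraries. Of 65 tested, 17 were downregulated and 1, *nlp-25*, was upregulated (3.59). Their summed level was 4592 CPM in wild-type replicate 1, 1364 CPM in replicate 2 and 2314 CPM in replicate 3, against 918 to 1180 CPM in the mutant. *flp-1*, an FMRFamide-like peptide gene, was at 158, 76.6 and 60.01 CPM and at 25.7, 42.4 and 27.6 CPM (-1.62, standard error 0.43, adjusted p = 0.0262). The list median was -1.33 with all libraries and ran from -1.79 to -0.50 with 1 library left out. Its calls numbered 11 without wild-type replicate 1, 34 without wild-type replicate 3 and 1 without any mutant library.

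The decreases were not limited to neurons, and in bulk RNA fewer cells of a type and less RNA per cell cannot be told apart. Of 48 body wall muscle genes, 27 were downregulated (median -1.24) and 21 did not pass the test. *unc-54*, the major myosin heavy chain, was at 1295, 1731 and 2093 CPM in wild type and at 597, 565 and 593 CPM in the mutant (-1.54, standard error 0.37, adjusted p = 0.0205). *unc-89*, a giant protein of the M-line, was at 189, 387 and 624 CPM and at 71.2, 123 and 83.2 CPM (-2.12). *myo-3* fell by 1.40 on the log2 scale. Muscle genes summed to 17050 to 21870 CPM in wild type and 8131 to 8785 CPM in the mutant, without overlap. No muscle gene was called when a mutant library was left out, and 7 were without wild-type replicate 2, while the median stayed between -1.27 and -1.07.

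In the pharynx, 12 of 30 genes were downregulated, including *myo-2*, its myosin (-1.05), and the gland genes *phat-1* (-2.49) and *phat-2* (-2.01). Intestinal genes gave 6 decreases among 40, with 1 increase, *end-1*. The gut master regulator *elt-2* was at 48.2, 50.3 and 36.6 CPM in wild type and at 33.8, 29.95 and 34.9 CPM in the mutant (-0.45, adjusted p = 0.226). *pept-1* (-2.06), a peptide transporter, *ges-1* (-1.52), a gut esterase, and *vha-6* (-1.34), an apical proton pump subunit, were among those that fell. The other 33 did not pass the test, and the share downregulated, 15%, was near the 16% over all genes. The pharynx and intestine counts were 0 to 2 without any 1 mutant library, the pharynx count was 4 without wild-type replicate 2, and the intestine count was 18 without wild-type replicate 3.

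Cuticle genes included members with the largest decreases. Of 113 *col* collagen genes, 48 were downregulated and 10 upregulated (median -1.49), and paralogous collagens can share reads, so single members are uncertain. Hedgehog-related and Patched-related genes, which in the worm act largely in cuticle and molting, gave 41 decreases among 68 and a median of -1.95. *grl-21*, a ground-like gene, was at 490, 57.8 and 209 CPM in wild type and at 5.68, 5.67 and 5.298 CPM in the mutant (-5.50, standard error 0.77, adjusted p = 0.00482). *tyr-2*, of the tyrosinase family, was at 320, 63.8 and 151 CPM and at 4.61, 7.83 and 4.66 CPM (-4.97). *col-160*, *col-168*, C42D4.3 (*dbd-13*), F35B3.4 (*dbd-20*), F12A10.7 and *nspe-6* made up the rest of the 8 largest decreases. These 8 were chosen by their fold change among genes without overlap, and wild-type replicate 2 was the lowest wild-type library for all 8, at 1.76 to 260 CPM. Without 1 mutant library, 6 or 8 *col* genes and 8 to 10 Hedgehog-related genes were downregulated, and without wild-type replicate 2 the latter numbered 26.

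The epidermis secretes the cuticle. Of 47 of its regulators and junction genes, 12 were downregulated, with *grh-1* (-2.41), the Grainyhead factor, and *mup-4* (-1.89), an apical attachment protein, among them. *lin-26* was at 130, 229 and 112.3 CPM in wild type and at 86.5, 56.0 and 87.8 CPM in the mutant and missed the threshold (-1.03, adjusted p = 0.0659). *noah-1*, an apical matrix protein, was at 508, 1525 and 1559 CPM in wild type and at 513, 638 and 609 CPM in the mutant, so wild-type replicate 1 lay with the mutant. Of 17 body-shape collagens, 2 were upregulated, *sqt-1* (3.68) and *rol-8* (2.98), and *dpy-13* was downregulated (-1.24). These were 11.8% and 5.88%, below the 14.4% and 16% over all genes. The list median was -0.93, with 12 members below 0 and 5 above it. *dpy-7* (-1.49, adjusted p = 0.0962) and *sqt-3* on its transcript row (-1.19, adjusted p = 0.052) missed the threshold. Without any 1 mutant library, 15 members of the list were tested and none was called. With 10 counts required of every library, neither increase was called. Epidermal calls numbered 1 without any mutant library, 5 without wild-type replicate 2 and 26 without wild-type replicate 1.

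Basement membrane genes gave 11 decreases among 26. *emb-9* and *let-2*, the type IV collagen chains, fell by 1.93 and 2.22 on the log2 scale. *let-2* was at 963, 3212 and 2084 CPM in wild type and at 357, 538 and 446 CPM in the mutant, and with *ost-1*, the SPARC homologue, *pat-10*, troponin C of body wall muscle, *eat-6*, a sodium pump subunit, and *tts-2* it was among the 5 most abundant genes that fell. The laminin chain *lam-1* did not follow the collagens, at 209, 664 and 1215 CPM in wild type and 654, 1020 and 700 CPM in the mutant (0.19, adjusted p = 0.827). Without 1 mutant library 0 to 2 of these genes were called, and 6 without wild-type replicate 2. Of 10 Hox genes and cofactors, *egl-5* (-1.79), *mab-5* (-1.31) and *php-3* (-1.22), which pattern the posterior body, were downregulated and the cofactor *ceh-40* (1.25) was upregulated. The mid-body gene *lin-39* and the anterior gene *ceh-13* had log2 fold changes of -0.69 each, short of the threshold but with all mutant libraries below wild type. Without 1 mutant library no Hox gene was called, and without wild-type replicate 1 the decreases numbered 5.

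**Figure D3:**
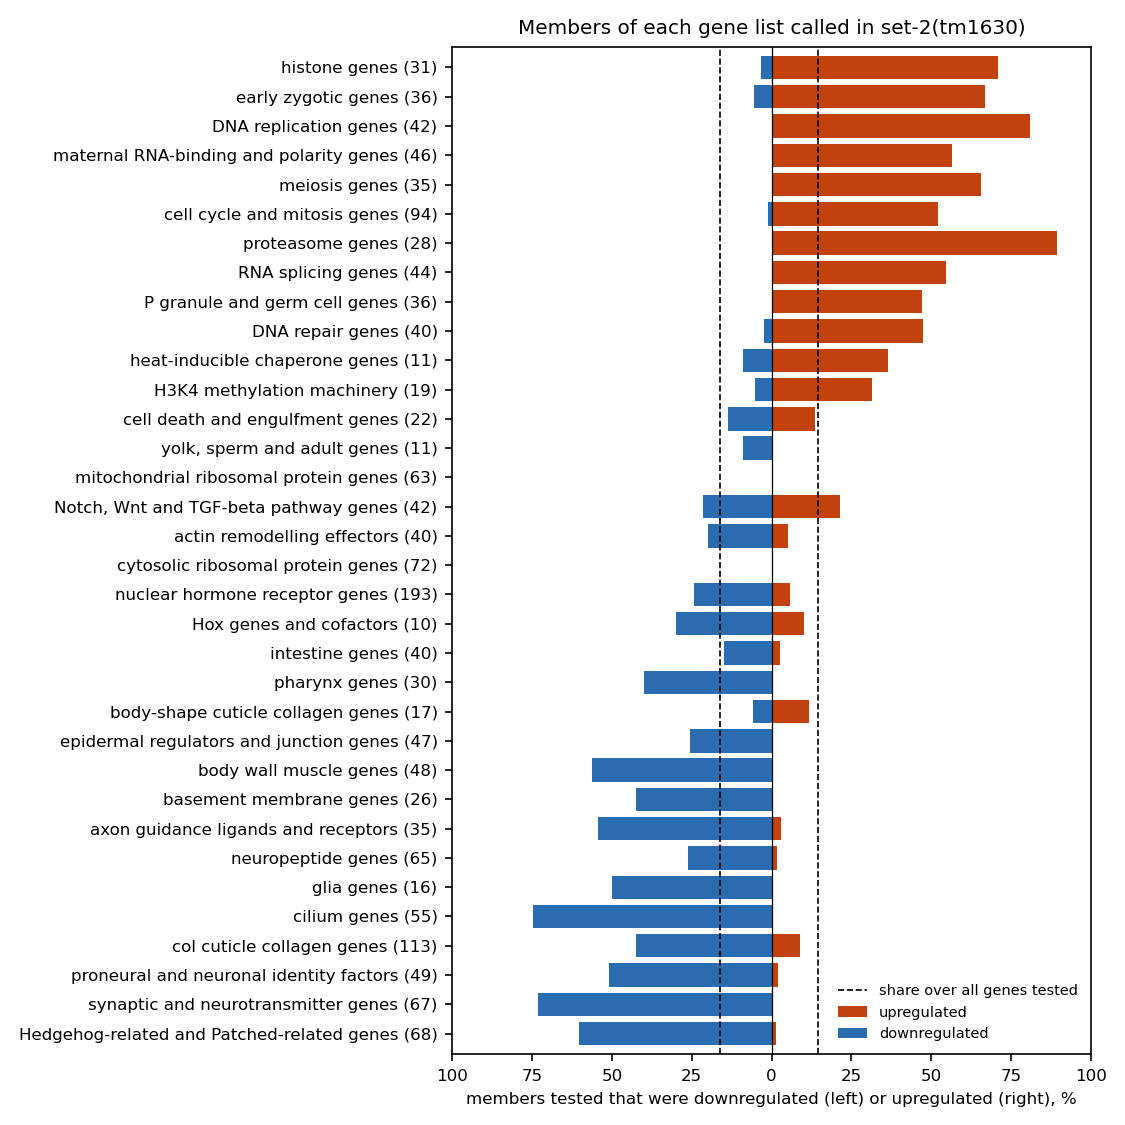
Share of the tested members of each list that were upregulated (right, orange) or downregulated (left, blue) in *set-2(tm1630)*, ordered by median log2 fold change, with the shares over all genes tested (14.4% and 16%) as dashed lines. Proteasome, replication and histone lists had most of their members called upward and synaptic and cilium lists most of theirs downward, while neither ribosomal protein list had a call.

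Genes of dividing cells were higher in the mutant. Of 42 DNA replication genes, 34 were upregulated, 8 did not pass the test and 40 had all mutant libraries above wild type (median 2.15). *pcn-1*, the sliding clamp PCNA, was at 31.3, 16.3 and 60.03 CPM in wild type and at 543, 581 and 518 CPM in the mutant (3.93, standard error 0.53, adjusted p = 0.00424). The helicase subunit genes *mcm-5* and, on a transcript row, *mcm-2* rose by 3.05 and 3.84 on the log2 scale. *rnr-1*, the large subunit of ribonucleotide reductase, was at 21.7, 45.8 and 85.4 CPM and at 274, 198 and 259 CPM (2.26). Wild-type replicate 3 was the highest wild-type library for each of these genes. The early zygotic and maternal lists were higher in the same mutant libraries, and their part in these increases was not tested. Without a mutant library, 19 or 20 members were called.

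Mitotic genes moved with them and a cell cycle inhibitor did not. Of 94 cell cycle and mitosis genes, 49 were upregulated and 1, *cdc-25.4*, was downregulated (-2.82). *cdk-1*, the mitotic kinase, was at 33.2, 35.5 and 78.7 CPM in wild type and at 254, 232 and 258 CPM in the mutant (2.33, standard error 0.41, adjusted p = 0.00859). The B-type cyclin *cyb-1* rose by 2.31 on the log2 scale, *cyb-3* by 3.19 and the phosphatase gene *cdc-25.3* by 6.22. *cye-1*, the G1/S cyclin, was higher in every mutant library but missed the threshold (1.42, adjusted p = 0.0605). *cki-1*, the CDK inhibitor that holds cells in G1, was at 201, 278 and 195 CPM in wild type and at 198, 207 and 204 CPM in the mutant (-0.15). Without a mutant library 15 or 16 members were called, 19 without wild-type replicate 2 and 74 without wild-type replicate 3.

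**Figure D4:**
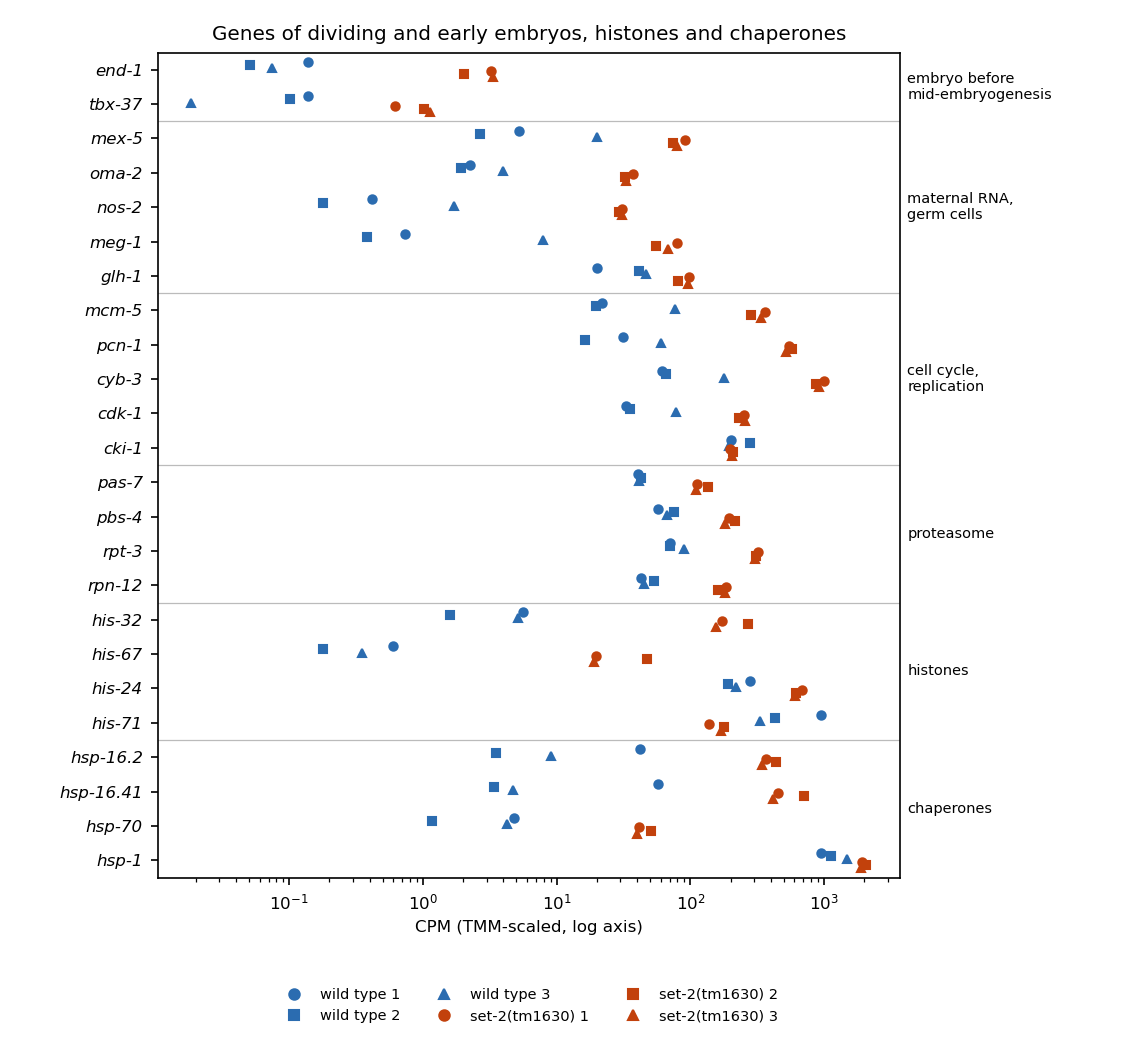
CPM on a log axis of early, maternal, cell cycle, proteasome, histone and chaperone genes in the 3 wild-type (blue) and 3 *set-2(tm1630)* (orange) libraries, 1 marker per library. Of the genes drawn, *his-71* was lower in every mutant library, *cki-1* overlapped between 195 and 278 CPM, and the others were higher in every mutant library.

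Germ cell and meiosis genes were higher in the same libraries. Of 36 P granule and germ cell genes, 17 were upregulated and 28 had all mutant libraries above wild type (median 1.40). *nos-2*, a Nanos homologue of the primordial germ cells, was at 0.412, 0.179 and 1.70 CPM in wild type and at 31.1, 29.4 and 30.8 CPM in the mutant (5.26, standard error 0.79, adjusted p = 0.00576). *glh-1*, the Vasa helicase of P granules, was at 20.2 to 46.7 CPM and 81.3 to 98.3 CPM (1.34), and *meg-1*, of embryonic P granules, rose by 4.48 on the log2 scale. Of 35 meiosis genes, 23 were upregulated. The axis genes *htp-3* and *him-3* rose by 2.36 and 1.60, and *syp-1*, of the synaptonemal complex, did not pass the test with wild-type replicate 3 at 54.1 CPM and the mutant libraries at 55.4 to 68.5 CPM (1.32, adjusted p = 0.155). With 1 mutant library left out, 8 or 9 germ cell genes and 9 to 12 meiosis genes were called, and 27 germ cell genes were without wild-type replicate 3. DNA repair genes gave 19 increases among 40, with *mre-11* (2.78) and *msh-2* (2.54) the highest, and splicing genes 24 among 44. Those calls numbered 5 or 6 and 6 to 8 without a mutant library, and 8 and 14 without wild-type replicate 2, and the repair genes called were 30 without wild-type replicate 3.

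Proteasome genes, whose products degrade ubiquitin-tagged proteins, were higher in every mutant library. All 28 subunit genes tested had every mutant library above every wild-type library, 25 were upregulated, and the median log2 fold change was 1.51. The interquartile range ran from 1.32 to 1.86. *pas-7*, of the core particle's outer ring, was at 40.5, 42.9 and 41.2 CPM in wild type and at 113, 136 and 110 CPM in the mutant (1.53, standard error 0.26, adjusted p = 0.00813). *rpt-3*, an ATPase of the regulatory particle base, was at 70.8, 70.5 and 89.6 CPM and at 321, 310 and 302 CPM (2.02). The lid genes *rpn-11* and *rpn-12* rose by 1.89 and 1.91 on the log2 scale. The 3 members short of the threshold were *pbs-5* (1.147), *rpn-1* (1.13) and *rpt-6* (0.71). Another 4 listed members had no reads on rows of their own. With the rows of each gene summed, 26 of 32 were upregulated. On transcript rows, *rpn-2* rose (1.12, adjusted p = 0.0217) and *rpn-6.1* did not pass the test (0.61, adjusted p = 0.289). Summed over the rows of 32 listed members, 4 of them empty, the level was 2279 to 2588 CPM in wild type and 6770 to 7397 CPM in the mutant. The median stayed between 1.48 and 1.58 with any library left out, although 10 or 11 members were called without a mutant library.

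Ribosomal protein genes did not follow. The 72 cytosolic ribosomal protein genes gave 0 calls in either direction in edgeR's quasi-likelihood test, 0 at an unadjusted p under 0.05 and 0 in the DESeq2 Wald test. Their summed level was 282700, 117300 and 76970 CPM in wild type and 75060, 151400 and 85000 CPM in the mutant, so single libraries of each genotype stood apart by more than the genotypes did. *rla-0*, a subunit of the ribosomal stalk, was at 11150, 3688 and 2398 CPM and at 2608, 6203 and 2882 CPM. The list median of -0.66 moved to between -0.997 and 0.02 with a library left out. The 63 mitochondrial ribosomal protein genes also gave 0 calls, with 5 at an unadjusted p under 0.05 and 1 upregulated in the DESeq2 Wald test, and their summed level was 4111 to 4239 CPM in wild type and 4061 to 4226 CPM in the mutant.

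Most histone genes that passed the count filter were higher in the mutant. Of 31 tested, 22 were upregulated, mostly members of the replicative clusters, whose transcripts accumulate in S phase, with a median log2 fold change of 4.35. The H3 gene *his-32* was at 5.59, 1.58 and 5.18 CPM in wild type and at 173, 269 and 156 CPM in the mutant (5.60, standard error 0.58, adjusted p = 0.00281). *his-67*, an H4 gene, was at 0.596, 0.179 and 0.351 CPM and at 19.9, 47.2 and 18.97 CPM (6.29). These genes occur as near-identical copies that can share reads, and mutant replicate 2 stood above the other mutant libraries. *his-71*, a gene of the H3.3 variant, was the 1 member downregulated, at 955, 433 and 330 CPM in wild type and 139, 179 and 170 CPM in the mutant (-1.82, standard error 0.46, adjusted p = 0.0233). The other H3.3 gene, *his-72*, on a transcript row, went the other way, from between 38.05 and 40.14 CPM to between 67.3 and 67.96 CPM (0.79, adjusted p = 0.0424). The H1 gene *his-24* rose by 1.47 on the log2 scale. Among abundant members, *his-41* (-1.13, adjusted p = 0.0921) and *his-35* (-1.16, adjusted p = 0.110) had negative values short of the threshold. The summed level of 72 histone genes overlapped, at 1204 to 3405 CPM in wild type and 1833 to 2712 CPM in the mutant. How fully the library preparation captured replicative histone transcripts was not tested. Members with few wild-type reads passed the filter only through the mutant libraries, and with 10 counts required of every library 13 of 21 were upregulated, with a median of 3.52. Without mutant replicate 1, 2 or 3, 28 members were tested each time, and 14, 9 and 16 were upregulated.

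Of 11 heat-inducible and other chaperone genes, 4 were upregulated, 1 was downregulated and 6 did not pass the test. *hsp-16.2*, a small heat shock protein gene, was at 41.97, 3.49 and 9.13 CPM in wild type and at 368, 436 and 346 CPM in the mutant (4.40, standard error 0.88, adjusted p = 0.0119). *hsp-16.41*, its neighbour in the family, was at 57.6, 3.42 and 4.71 CPM and at 451, 714 and 412 CPM (4.59), and members of this family can share reads. *hsp-70* was at 4.77, 1.17 and 4.25 CPM and at 41.1, 50.7 and 40.11 CPM (3.70, adjusted p = 0.00538). No mutant library overlapped wild type for these genes, and wild-type replicate 1 was the highest wild-type library for each. *hsp-4*, the BiP chaperone of the endoplasmic reticulum, rose by 1.78 and *hsp-60*, of mitochondria, fell by 1.48, while the constitutive *hsp-1* (0.72, adjusted p = 0.173) and the regulator *hsf-1* (0.14) did not pass the test. The 4 increases on the list became 2, 1 and 2 without mutant replicate 1, 2 or 3 and 6 without wild-type replicate 1. Genes of cell death and engulfment gave 3 increases and 3 decreases among 22, 13.6% each, near the 14.4% and 16% over all genes. Without any 1 mutant library 1 increase and no decrease were called, and 7 increases were called without wild-type replicate 3. *egl-1*, the trigger of programmed cell death, was at 6.80 to 12.5 CPM in wild type and 15.9 to 18.8 CPM in the mutant and missed the threshold (0.89, adjusted p = 0.0833).

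Signalling pathways held genes of both directions. Of 42 Notch, Wnt and TGF-beta genes, 9 were upregulated and 9 downregulated, 21.4% each, against 14.4% and 16% over all genes. The Notch receptor *glp-1* (2.58) and the ligands *apx-1* (1.53) and *arg-1* (2.94), used in early blastomeres, rose, whereas the Wnt ligands named above, the Frizzled receptors *mig-1* (-1.73) and *cfz-2* (-1.57) and the TGF-beta ligands *dbl-1* (-1.36) and *unc-129* (-1.08) fell. Of 193 nuclear hormone receptor genes, 47 (24.35%) were downregulated and 11 (5.70%) upregulated (median -0.68). Without mutant replicate 1, 2 or 3 the downregulated receptors numbered 0, 1 and 1, without wild-type replicate 2 they numbered 19, and without wild-type replicate 3 they numbered 75. In the pathway list, 3 increases and 0 to 2 decreases were called without a mutant library, and 5 decreases without wild-type replicate 2 and 14 without wild-type replicate 1.

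The 8 largest increases were chosen by their fold change, which favours genes with few wild-type reads, so their values are a description. F52D4.1 had 1, 0 and 0 reads in wild type and 370, 191 and 242 in the mutant. C50E3.12 had 4, 2 and 8 reads in wild type and 914, 232 and 614 in the mutant (log2 fold change 7.25). F40G12.11, C50C3.2 (*spc-2*), C50E3.13, F14H3.4, a transcript row of T06D4.1 and ZK177.9 were the others, with log2 fold changes of 6.63 to 7.11. No role is given here for these loci. Among abundant genes, the 5 highest that rose were *tba-2*, an alpha-tubulin, C44E4.4 (*ssb-1*), a La protein homologue, *ran-1*, the GTPase of nuclear transport, *clec-87*, a C-type lectin gene, and C01G10.8 (*ahsa-1*), an activator of HSP90. *clec-87* was at 22.7, 3.01 and 59.6 CPM in wild type and at 1118, 1399 and 1053 CPM in the mutant (5.39, standard error 1.00, adjusted p = 0.00984).

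The change in *set-2(tm1630)* was also set against that in *set-2(zr2012)*, each relative to its own wild type, by an interaction test over 12 libraries. Of 17903 genes, the change was higher in *set-2(tm1630)* for 11.8% (2104) and lower for 11.7% (2094). The change was higher in the deletion for 24 of 28 proteasome genes, 32 of 42 replication genes, 29 of 48 maternal genes and 20 of 38 early zygotic genes. The change was lower in the deletion for 27 of 55 cilium genes, 30 of 67 synaptic genes, with 1 higher, and 14 of 35 guidance genes, with 2 higher. For *pcn-1* the difference was 5.06 on the log2 scale (adjusted p = 0.00507), and for *che-3* it was -2.45 (adjusted p = 0.00299). Both exceeded in size the change in the deletion (3.93 and -2.14), so the estimated change in *set-2(zr2012)* had the opposite sign. That sign was not tested, and the standard error of the difference was 0.96 for *pcn-1* and 0.40 for *che-3*. *hsp-70* went the other way from the early genes. It rose in *set-2(tm1630)*, but the difference from *set-2(zr2012)* was -4.31 (adjusted p = 0.00184), and for 5 of 11 heat-inducible genes the change in the deletion was the lower of the pair. *unc-86* (-0.27, adjusted p = 0.588) and *hlh-3* (-0.01, adjusted p = 0.986) gave no difference past the threshold. The number of genes that differed was 4198, and it was 7293 without wild-type replicate 3, 2457 without replicate 1 of *set-2(tm1630)* and 2430, 2518 and 2357 without replicate 1, 2 or 3 of *set-2(zr2012)*. The experiments were separate, so allele and experiment enter each difference together.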

How the data were processed

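The authors deposited, for each library, raw read counts on 45410 rows, without normalization, and these counts were used as deposited. Reads had been mapped in Galaxy to the WS220 genome with 2 mismatches allowed. The submitters' processing notes name Trimmomatic 0.36.0, HTSeq 0.9.1 and DESeq2 2.1.8.3. The aligner and the strand setting are not given in the sources used here. Of the rows, 3837 are RefSeq transcripts, holding 3.63% to 4.36% of the counts, and 2863 of them were matched to a gene through RefSeq names (assembly WBcel235, used for names only). Reads of overlapping, antisense or near-identical genes cannot be told apart.

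For the comparison, R 4.3.3 was used with edgeR 4.0.16 and limma 3.58.1. A row entered the test where 3 or more of the 6 libraries had a count of 10 or higher (TMM, quasi-likelihood, no block, two-sided, Benjamini-Hochberg over all rows, threshold 0.05). Gene lists are given by counts and medians with no test. A library's list level is the median of log2(CPM + 0.5) relative to the wild-type mean. The difference from *set-2(zr2012)* was an interaction over 12 libraries. The edgeR fit was also run on simulated counts with the same spread for all genes and both groups. That run does not test the calls under the wider spread of the wild-type libraries. With 3 libraries in each group, the smallest exact permutation p is 0.1.

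The genes named are the representative genes of 34 lists, the 5 guidance genes of the study's genetic interactions, and, in each direction, the 8 DE genes with the largest log2 fold change and the 5 with the highest mean CPM, with at least 100 counts on average and no overlap of the groups. Of the representative genes not described above, *ifb-2* (-0.73) and, on transcript rows, *pha-4* (-0.74) and *rpl-3* (-0.19) did not pass the test. *ajm-1* had no reads, and *vit-2* did not pass the count filter. Other genes were named after their values were seen. The members and lists were chosen with earlier results of these data known, and 2 genes entered by mistake (*nuo-3* and *gpx-1*) were taken out of 2 lists. The alternatives were DESeq2's size factors, the DESeq2 1.42.0 Wald test, no filter on low counts, the minimum of 10 required of every library, a replicate block, a fit shared by all 12 libraries and each library left out in turn. Summing the rows of a gene was added after the data were seen.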

Additional observations from a re-analysis of the deposited data

Results flagged for a closer look

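The change in *set-2(tm1630)* differed from that in *set-2(zr2012)* for 4198 genes in the interaction test of edgeR, where each allele is set against its own wild type. The genes named by the rule and past the threshold follow, each with the log2 change in *set-2(tm1630)* minus that in *set-2(zr2012)*. A negative value says that the deletion allele had the lower change. The difference alone does not give the direction of the change in *set-2(zr2012)*.

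Among guidance genes the difference was -1.80 for *unc-6*, -1.94 for *slt-1*, -1.71 for *vab-1*, -1.92 for *plx-2* and -1.77 for *unc-5*. The neuronal genes *ast-1* and *che-3* gave -1.32 for *ast-1* and -2.45 for *che-3*. In muscle it was -1.79 for *myo-3*, -1.53 for *unc-54*, -2.54 for *unc-89* and -1.29 for *pat-10*, and for basement membrane and the other abundant genes that fell it was -2.69 for *emb-9*, -2.57 for *let-2*, -1.43 for *ost-1* and -1.71 for *eat-6*. Cuticle genes and the other large decreases gave -5.25 for *col-160*, -4.31 for *col-168*, -5.13 for *grl-21*, -4.28 for *tyr-2*, -4.53 for *nspe-6* and -2.01 for *sqt-3* on its transcript row, and, by locus name, -6.19 for F35B3.4, -5.25 for F12A10.7 and -5.87 for C42D4.3.

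The change of early and maternal genes was higher in the deletion. For each gene given, the difference exceeded the change in the deletion itself (5.08 for *end-1*, 5.93 for *pes-10*). Their estimated change in *set-2(zr2012)* was therefore downward. The difference was 6.37 for *end-1*, 8.25 for *pes-10*, 3.44 for *mex-5*, 4.22 for *oma-2*, 6.08 for *nos-2* and 5.16 for *pie-1* on its transcript row. For meiotic axis genes it was 1.89 for *him-3* and 2.10 for *htp-3*. For replication and mitosis genes it was 4.25 for *mcm-5*, 5.19 for *mcm-2* on its transcript row, 5.06 for *pcn-1*, 3.49 for *rnr-1*, 3.34 for *cyb-1* and 3.12 for *cdk-1*. The abundant genes that rose gave 2.13 for *tba-2*, 2.505 for C44E4.4, 2.41 for *ran-1* and 6.79 for *clec-87*. The loci with the largest increases gave 9.32 for F52D4.1, 8.82 for C50E3.12, 8.53 for F40G12.11, 6.23 for C50C3.2, 8.17 for C50E3.13, 8.20 for F14H3.4, 8.32 for the transcript row of T06D4.1 and 7.20 for ZK177.9.

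*hsp-70* was the exception among the genes given here that rose in the deletion, with a difference of -4.31. The experiments were prepared separately, so a difference between alleles cannot be told apart from one between experiments.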

How the results depend on the processing

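The number of DE genes was 4961 and stayed within 1.5 times that value with DESeq2's size factors (4848), the DESeq2 Wald test (6354), no count filter (5781), at least 10 counts in every library (4013) and summed rows (4924). With all 12 libraries in 1 fit it was 8124, of which 4648 fell. With 1 library left out it ran from 747 to 7857, that of upregulated genes from 607 to 3703 and that of downregulated genes from 140 to 4154. The number that differed from *set-2(zr2012)* ran from 2357 to 7293. Deviations of same-numbered wild-type and mutant libraries correlated across genes at -0.35, -0.0862 and -0.0832, so the replicate numbers were not taken to pair the samples. With the replicate block, 3470 genes were DE, 2024 up and 1446 down, and 1858 differed from *set-2(zr2012)*. The cause of these shifts was not tested. Of the 34 lists, the count in the leading direction moved by over 1.5 times in 12 with the block, in 8 with all 12 libraries, in 5 with the stricter filter, in 3 with the Wald test and in 2 without a filter. Of the named genes, 25 lost their call with the block and none changed direction past the threshold under any alternative. The smallest library held 14651380 counts, which limits what can be said of genes with few reads.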

Other observations

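Families that share a symbol prefix and had at least 15 rows tested, 76 in all, were counted in the same way after the data were seen, without leaving out libraries. F-box genes of the *fbxb* family, adaptors of ubiquitin ligases, gave 41 increases and 2 decreases among 100, and *fbxa* genes 27 and 5 among 140, against 14.4% and 16% over all genes. Their partners, the Skp1-related *skr* genes, gave 12 increases and 1 decrease among 19 (median log2 fold change 1.67). The *fbxb*, *fbxa* and *skr* families hold close paralogs that can share reads. Nuclear pore genes (*npp*) gave 11 increases among 18, with a median of 1.64, and in 15 of the 18 all mutant libraries lay above wild type.

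Some channel and receptor families, with members that are also in the synaptic list, gave mostly decreases among their calls. Potassium channel genes of the *twk* family gave 16 decreases and 1 increase among 36 (44.4% down, against 16% over all genes). Ligand-gated channel genes (*lgc*) gave 19 decreases among 44 (43.2%). Nicotinic receptor subunits (*acr*) gave 10 among 18 (55.6%) and neuropeptide receptors (*npr*) 14 among 27 (51.9%). Chemoreceptor families were mixed, with 14.4% up and 16% down over all genes for comparison. The *str* genes gave 7 increases and 7 decreases among 49, *sri* genes 5 and 5 among 23 and *srt* 3 and 3 among 21. The *sre* and *srx* genes gave increases only, 5 among 23 (21.7%) and 4 among 27 (14.8%, near the 14.4% over all genes). Decreases outnumbered increases among *srh* genes, the largest of these families, with 12 decreases and 4 increases among 63. They also did among *srg* genes, with 3 decreases and 1 increase among 17. The *srd* and *srw* genes each gave 2 decreases and 1 increase, among 15 and 16. Subunits of the vacuolar proton pump (*vha*) gave 8 decreases and 1 increase among 18 (median -1.201). Of the 13355 rows named 21ur, for the precursors of piRNAs, 93 passed the count filter. Of these, 10 were upregulated and 13 downregulated, shares below the 14.4% and 16% over all genes.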
